A study of Mus musculus with 4 samples.

Results

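The clustered histone genes are the rows whose symbol begins with Hist1h, Hist2h, Hist3h or Hist4h, pseudogene rows marked -ps left out, and there were 69 of them among the 54446 genes of the table. Most are replication-dependent histone genes, named for the cluster in which they lie. The Hist1 cluster on chromosome 13 held 56 members, the Hist2 cluster on chromosome 3 held 10, the Hist3 cluster on chromosome 11 held 2, and the Hist4 locus on chromosome 6 held 1. By the class in their symbols, 6 are of the linker histone H1, 20 of H2A, 18 of H2B, 12 of H3 and 13 of H4. Of the Hist1 members, Hist1h2aj and Hist1h2al are annotated as pseudogenes in spite of their symbols, and Hist1h2al lies apart from the cluster. RNA was sequenced from mammary cells of wild-type C57BL/6 mice, sorted by flow cytometry into basal and luminal cells and grown in growth factor-reduced Matrigel in medium with insulin-transferrin-selenium and EGF, which all 4 cultures received. Each cell label was treated with DMSO, the vehicle control, or with 100 μM baicalin, a flavone glucuronide of Scutellaria roots, with 1 library for each of the 4 conditions. The study's methods give a range of ages and stages of female mice for primary cells in general and a day on which colonies were scored, but tie neither to these libraries, and the number of mice behind each culture is not given in the sources used here. A colony culture in Matrigel is not the gland. The study asked how the mRNA of basal and luminal cells differs with baicalin.

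A nucleosome is DNA wound around an octamer of the core histones H2A, H2B, H3 and H4, and a linker histone H1 sits where the DNA enters and leaves it. The clustered genes supply histones during DNA replication, and their mRNAs are the known exception among mRNAs of animal cells: they end just after a conserved stem-loop, which the stem-loop binding protein SLBP holds, and carry no poly(A) tail. The mRNA of these libraries was enriched with oligo (dT) beads, which hold poly(A) tails, so that the values below are about the members' RNA in a polyadenylated fraction and not about their total mRNA. Some clustered genes are known to make a second, polyadenylated mRNA from a poly(A) signal further downstream, above all in cells that leave the cell cycle.

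The stem-loop and the poly(A) signal are therefore shown for the members that carried most fragments. The stem-loop was searched in the annotated transcripts as an inverted repeat with stems of 6 base pairs that begin with GG, around a loop of 4 bases that begins with TT. A match was found in 44 of the 69 members, in 6 distinct sequences, with no unpaired position in any stem. Of 21851 other protein-coding genes, 4 held a match with an arm used by the members. Below, the stem-loop is in capitals, 5′ to 3′, on GRCm38, with 5 bases on each side. The H4 genes used 3 of the sequences and shared none of them with the other classes.
Hist1h1c, chr13:23739507-23739532, plus strand: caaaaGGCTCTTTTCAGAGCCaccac
Hist1h2bg, chr13:23571838-23571863, plus strand: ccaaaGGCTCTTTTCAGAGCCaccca
Hist1h4i, chr13:22040961-22040986, minus strand: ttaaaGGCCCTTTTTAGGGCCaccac

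A poly(A) hexamer, AATAAA or ATTAAA, lay within the last 50 bases of an annotated transcript in 17 of the 69 members, or 24.6%, against 81.3% of the 21851 other protein-coding genes. Some member models stop before the RefSeq end, that of Hist1h1b by 51 bases and that of Hist1h2bn by 50. A hexamer or stem-loop beyond a model could not be found, so these shares describe the models. The hexamer is in capitals below, in the last bases of the annotated gene for Hist1h1c, Hist1h4i and Hist2h2be and at the end that RefSeq gives for Hist1h2bc. Each window is of 30 bases.
Hist1h1c, chr13:23740338-23740367, plus strand: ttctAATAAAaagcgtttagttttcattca
Hist1h4i, chr13:22040636-22040665, minus strand: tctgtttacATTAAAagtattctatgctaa
Hist2h2be, chr3:96223709-96223738, plus strand: ttattattAATAAAgttaccgattagtttc
Hist1h2bc, chr13:23692458-23692487, plus strand: atatAATAAAtgtcatgtaaagcaaaaaaa

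The gene models used for counting and those of RefSeq end at different places. RefSeq ends 40 of the 42 members with a stem-loop that could be compared within 20 bases after it, in each of these 4 to 8 bases after. The GENCODE model of Hist1h1c, which has 1 exon of 1560 bases on chr13:23738808-23740367, runs 840 bases past its stem-loop, to an end 20 bases after a hexamer, whereas RefSeq ends this gene 4 bases after the stem-loop. That of Hist1h4i runs 330 bases past the stem-loop and that of Hist1h2bg 155. Hist1h2bc on chr13:23684199-23692908 is spliced, holds no stem-loop match, and its last exon goes on for 428 bases past the end that RefSeq sets 13 bases after the hexamer. Hist2h2be on chr3:96221119-96223738 also held no match and ends 16 bases after its hexamer. FPKM divides the fragments of a gene by its exon length in kilobases and by the depth, and is thus set for these members by the long model.

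Before the results, 2 properties of the libraries have to be stated. Between 19356124 and 20648835 fragments were counted in a library, recovered from the FPKM and exon lengths, and for 1 kb of exons a single fragment counted as 0.0484 to 0.0517 FPKM. With 1 library per condition there is no replicate error and no test. The intervals given are exact 95% Clopper-Pearson intervals of the counted fragments, and they cover counting error only. Second, the cell labels go against their markers. Under DMSO, the luminal label had the higher level of all 10 basal markers, with Krt5 at 2015 against 128 FPKM and Krt14 at 2308 against 1494 FPKM, and the lower level of 8 of 10 luminal markers, with Krt8 at 383 against 1573 FPKM and Krt18 at 298 against 1408 FPKM. In the baicalin libraries 10 of 10 basal markers were again higher and 9 of 10 luminal markers lower with the luminal label. The libraries are therefore named by their labels only, and a direction between labels is a direction between labelled libraries.

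Most clustered histone genes were near the detection limit in this polyadenylated RNA, and Hist1h1c and Hist1h2bc stood far above the others. Of the 69 members, 13 were at 0 in all 4 libraries, 27 were above 0 in some and 29 in all. The highest FPKM of a member was at least 5 in 3 genes, between 1 and 5 in 7 and under 1 in 59. Hist1h1c, which encodes the linker histone H1.2, was at 20.5 FPKM with DMSO and 46.3 with baicalin in the libraries labelled basal, and at 87.0 and 131 FPKM in those labelled luminal. Hist1h2bc, an H2B gene, was at 13.9, 22.7, 35.3 and 36.6 FPKM in the same order, and Hist1h2bg, also an H2B gene, at 1.71, 0.399, 12.5 and 10.03 FPKM. For each of these 3 genes both libraries labelled luminal were above both labelled basal. A gene with no fragment in a library can still have up to 3 at this depth, and 27 and 34 members were at 0 in the libraries labelled basal with DMSO and with baicalin, against 21 in each library labelled luminal.

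**Figure D1:**
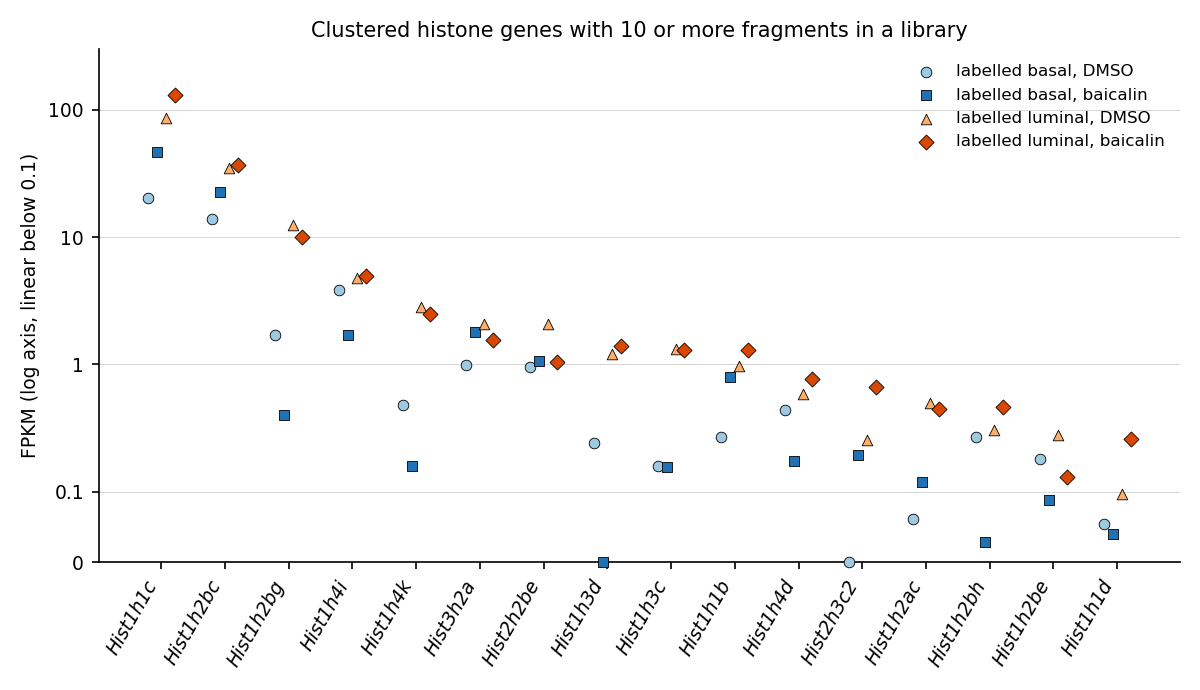
FPKM of the 16 clustered histone genes with 10 or more fragments in a library, 1 point for each of the 4 libraries, on a log axis that is linear below 0.1. Hist1h1c at 20.5 to 131 FPKM and Hist1h2bc at 13.9 to 36.6 FPKM stand above the other 14, of which Hist1h2bg alone passes 5 FPKM.

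In all, 1250 fragments fell on members in the library labelled basal with DMSO and 2253 with baicalin, and 4099 and 5735 in those labelled luminal, which is 63.0, 111, 212 and 278 per 1000000 fragments counted in the library. Hist1h1c held 50.8, 65.1, 64.1 and 73.4% of them and Hist1h2bc 25.6, 23.6, 19.3 and 15.2%. The other 67 members shared 295, 255, 683 and 652 fragments, which is 14.9, 12.6, 35.3 and 31.6 per 1000000. On the FPKM scale, which takes length into account, the linker class made up 41.7, 60.1, 54.9 and 65.2% of the members' sum, and H2B 37.6, 31.9, 32.6 and 24.5%. H4 made up 12.1, 4.14, 6.91 and 5.64%, H2A 6.19, 3.19, 3.05 and 2.17%, and H3 2.50, 0.662, 2.55 and 2.48%. The core histones of 1 nucleosome are needed in equal amounts, and neither the FPKM nor the fragments of the 4 core classes were near equal in any library. The Hist1 cluster held 94.6, 95.7, 96.5 and 98.0% of the FPKM sum, with 56 of the 69 members.

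**Figure D2:**
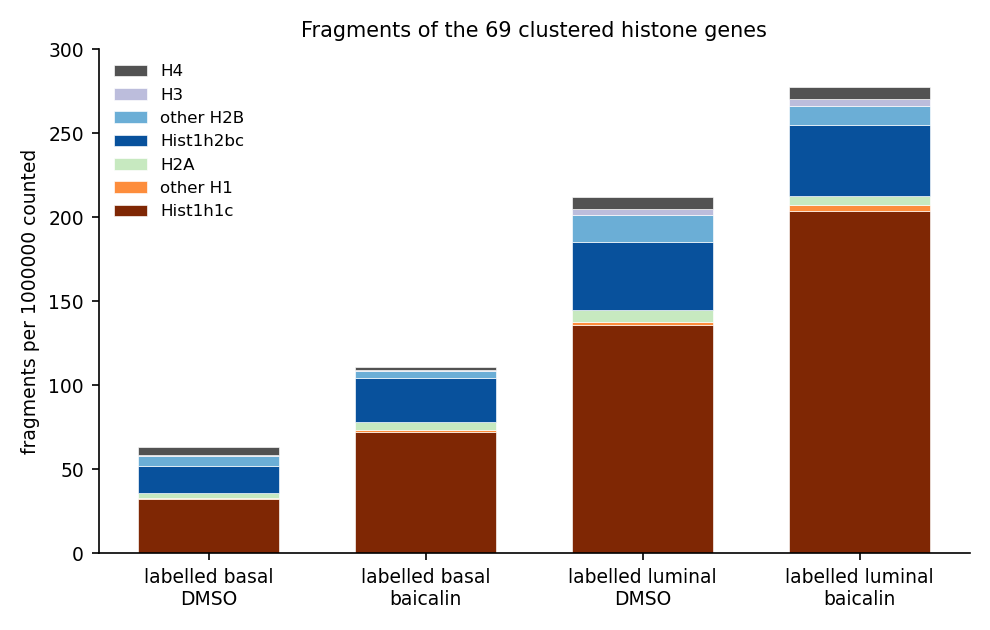
Fragments on the 69 clustered histone genes in each library, per 1000000 counted, stacked by gene and class. The bars rise from 63.0 in the library labelled basal with DMSO to 278 in that labelled luminal with baicalin, and Hist1h1c takes 50.8 to 73.4% of each.

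With baicalin in the libraries labelled basal, the intervals of Hist1h1c and 2 other members with at least 10 fragments lay above 1. Those of Hist1h2bg and Hist1h4i lay below 1. Hist1h1c had 635 fragments in the DMSO and 1466 in the baicalin library, a ratio of 2.26 at equal depth (interval 2.06 to 2.48) and a log2((FPKM + 1)/(FPKM + 1)) of 1.14. Hist1h2bc had 320 and 532 fragments, a ratio of 1.63 (1.41 to 1.88). Hist3h2a, an H2A gene of the Hist3 cluster, had 42 and 79, a ratio of 1.84 (1.25 to 2.74), but 708 of its 2146 exon bases are shared with Trim17 on the same strand, so that these fragments cannot be given to it alone. Hist1h2bg had 21 and 5 fragments, a ratio of 0.233 (0.0687 to 0.635). Hist1h4i, the H4 gene with the highest FPKM, was at 3.88 and 1.70 FPKM from 56 and 25 fragments, a ratio of 0.437 (0.261 to 0.712). Hist1h4d, another H4 gene, had 10 and 4 fragments, a ratio of 0.392 (0.0896 to 1.36) whose interval holds 1. Hist1h2bc has 12, Hist1h2bg 10 and Hist1h4i 6 near-identical copies, so that their fragments are uncertain. In bulk RNA of a culture, fewer cells of a type and less RNA per cell cannot be told apart.

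Among genes above 0 in all 4 libraries, Hist1h1c was the 1 member of 29 past a log2 change of 1 upward, against 2.15% of the 17787 genes so filtered, and 0 members were lower by more than 1, against 3.33%. The median change of the 29 was -0.04, beside 0.01 for all genes, with 9 members higher and 20 lower, where 50.9% of all genes were higher. By the counting interval, 3 of 9 members with at least 10 fragments were higher, against 32.9% of 15313 genes, and 2 were lower, against 30.8%. These shares are near those of all genes. Since a gene with many fragments has a narrow interval, an interval that leaves out 1 says nothing of the spread between cultures.

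In the libraries labelled luminal, baicalin went with a smaller difference of Hist1h1c and with a ratio of Hist1h2bc whose interval held 1. Hist1h1c had 2626 fragments in the DMSO and 4209 in the baicalin library, a ratio of 1.502 (1.43 to 1.58) and a log2 change of 0.58. Its interval did not overlap that in the libraries labelled basal, though the difference of the ratios could not be tested against replicates. Hist1h2bc had 790 and 874 fragments, a ratio of 1.04 (0.941 to 1.14). Hist1h2bg had 149 and 128, a ratio of 0.805 (0.631 to 1.03), and Hist1h4i had 67 and 74, a ratio of 1.04 (0.734 to 1.46). Hist2h2be, an H2B gene of the Hist2 cluster with a poly(A) signal and no near-identical copy, had 106 and 57 fragments, a ratio of 0.504 (0.359 to 0.702), beside 50 and 57 in the libraries labelled basal, where its ratio was 1.12 (0.750 to 1.67). Hist3h2a had 87 and 69 fragments, a ratio of 0.743 (0.534 to 1.03). The other large rises by the naming rule were Hist2h3c2, an H3 gene with 5 and 14 fragments, and Hist1h1b, which encodes H1.5, with 14 and 20, and both intervals held 1.

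By the counting interval, 2 of 16 members with at least 10 fragments were higher in the libraries labelled luminal, Hist1h1c and Hist1h1d, against 26.3% of 15947 genes, and 2 were lower, Hist2h2be and Hist1h2be, against 33.0%. Hist1h1d, which encodes H1.3, went from 14 to 40 fragments over a model of 7425 bases, or 0.0974 and 0.261 FPKM, and was named after its values were seen. Hist1h2be went from 24 to 12 and shares 450 exon bases with Hist1h1e on the same strand. No member passed 1 on the log2 scale in either direction, against 2.37% of genes higher and 1.59% lower. The median change of the 29 members was 0.04, beside -0.02 for all genes, with 15 higher and 14 lower, where 45.6% of all genes were higher. No member had an interval above 1 in the libraries of one label and below 1 in those of the other.

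**Figure D3:**
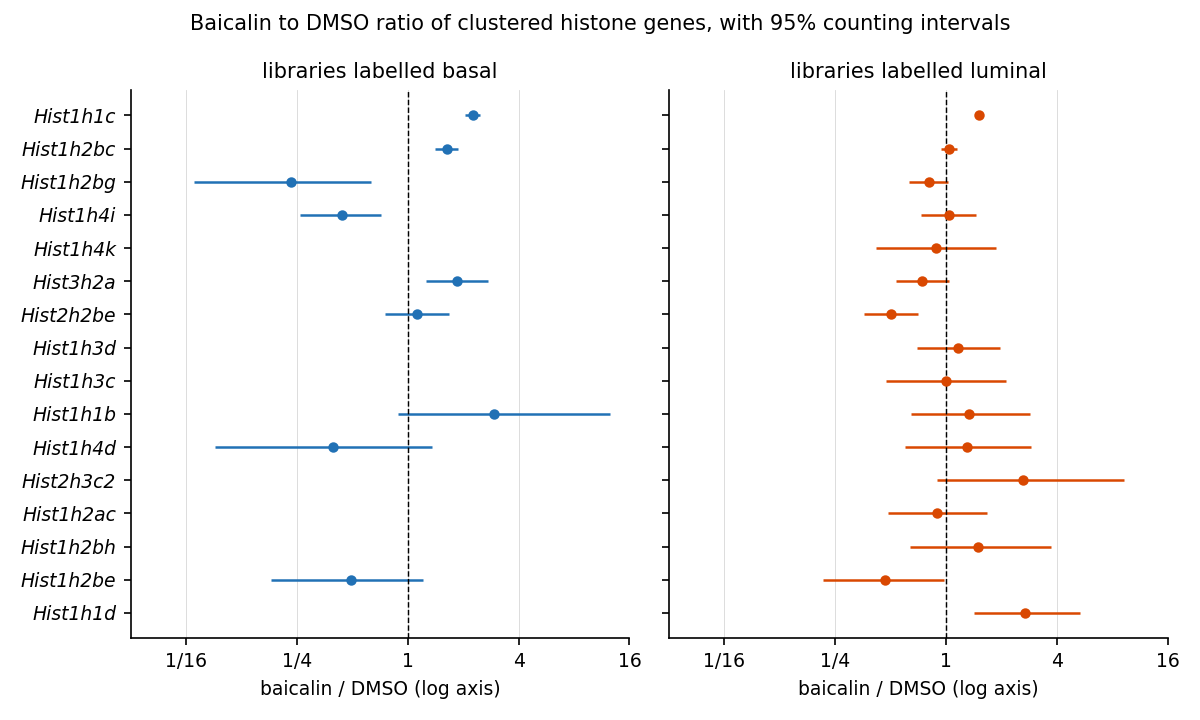
Ratio of baicalin to DMSO at equal depth for the 16 clustered histone genes with 10 or more fragments in a library, left for the libraries labelled basal and right for those labelled luminal, on a log axis. Points are ratios and bars are exact 95% counting intervals, drawn where a library of the pair held at least 10 fragments. Hist1h1c lies right of 1 in both panels, at 2.26 and 1.502, whereas Hist1h2bc does so in the left panel, at 1.63 against 1.04.

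The summed fragments of the family followed Hist1h1c and Hist1h2bc. Over all 69 members, baicalin gave 1.76 times the fragments of DMSO at equal depth in the libraries labelled basal (1.65 to 1.89) and 1.31 times in those labelled luminal (1.26 to 1.37). Without Hist1h1c the ratios were 1.25 (1.13 to 1.39) and 0.971 (0.903 to 1.04), and without both genes 0.846 (0.713 to 1.004) and 0.895 (0.803 to 0.998). The sums were thus below 1 for the 67 other members and above 1 with the 2 genes. The 6 linker genes gave 2.25 (2.05 to 2.47) and 1.51 (1.43 to 1.58), and without Hist1h1c, with 12, 23, 38 and 69 fragments, 1.88 (0.896 to 4.14) and 1.70 (1.13 to 2.60). Hist1h1d, whose model of 7425 bases runs 4879 bases past the RefSeq end, held 8, 6, 14 and 40 of these fragments. The 63 core genes gave 1.24 (1.11 to 1.38) and 0.952 (0.884 to 1.02).

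The core classes did not move together in the libraries labelled basal. H4 went from 85 to 45 fragments, a ratio of 0.518 (0.353 to 0.752), and Hist1h4i supplied 56 and 25 of these. H2B went from 434 to 619, a ratio of 1.40 (1.23 to 1.58), which became 0.747 (0.558 to 0.996) for the 17 H2B genes other than Hist1h2bc. H2A went from 66 to 91, a ratio of 1.35 (0.972 to 1.88), of which Hist3h2a had 42 and 79. H3 had 18 and 9 fragments, a ratio of 0.489 (0.194 to 1.15). In the libraries labelled luminal the 17 other H2B genes had 311 and 234 fragments, a ratio of 0.705 (0.593 to 0.838), and the intervals of H2A, H3 and H4 held 1 at ratios of 0.825, 1.203 and 1.02. By cluster, Hist1 was at 1.79 (1.67 to 1.93) and 1.35 (1.29 to 1.40), Hist2 at 1.06 (0.732 to 1.55) and 0.612 (0.455 to 0.819), and Hist3 at 1.84 (1.26 to 2.73) and 0.731 (0.529 to 1.01) in the libraries labelled basal and luminal. Hist2h2be held 50, 57, 106 and 57 of the 58, 63, 121 and 79 fragments of Hist2, and Hist4h4 had 0, 3, 5 and 3.

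The summed fragments of the members were higher in the libraries labelled luminal than in those labelled basal, with either treatment. With baicalin this held for the Hist1 cluster, whereas the intervals of the Hist2, Hist3 and Hist4 clusters held 1. With DMSO, the 69 members together had 3.36 times the fragments (3.16 to 3.59), and with baicalin 2.50 times (2.38 to 2.63). The ratio did not rest on Hist1h1c and Hist1h2bc, since the other 67 members gave 2.37 (2.07 to 2.73) and 2.51 (2.17 to 2.91). Hist1h1c was at 4.24 times (3.89 to 4.63) with DMSO and 2.82 times (2.66 to 2.99) with baicalin, Hist1h2bc at 2.53 (2.22 to 2.89) and 1.61 (1.45 to 1.80), and Hist1h2bg at 7.28 (4.59 to 12.1) and 25.1 (10.5 to 78.8). By class with DMSO, the ratio was 4.22 for H1, 2.07 for H2A, 2.60 for H2B, 3.82 for H3 and 1.62 for H4, and every interval lay above 1. With baicalin it was 2.82 for H1, 1.76 for H2B, 9.39 for H3 and 3.19 for H4, again with intervals above 1, and 1.26 (0.952 to 1.68) for H2A. The H3 ratio rests on 9 fragments in the library labelled basal with baicalin and has an interval of 4.72 to 21.2.

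With DMSO, 4 of 29 members passed a log2 change of 1 upward with the luminal label, against 4.71% of 17787 genes, and they were Hist1h1c, Hist1h2bc, Hist1h2bg and Hist1h4k. With baicalin they were again 4, with Hist1h4i in the place of Hist1h2bc, against 5.24%. No member was lower by more than 1, against 3.86% and 2.99% of genes. Hist1h4k, an H4 gene named after its values were seen, had 3 and 1 fragments in the libraries labelled basal and 17 and 16 in those labelled luminal. The median change of the members was 0.31 with DMSO, beside 0.01 for all genes, with 25 higher and 4 lower, and 0.37 with baicalin, beside -0.03, with 23 higher and 6 lower. Of all genes, 52.5% were higher with DMSO and 45.2% with baicalin. By the counting interval 10 of 15 members were higher with DMSO, against 35.9% of 15813 genes, and 12 of 16 with baicalin, against 30.4% of 15901 genes, and 0 were lower, against 34.1% and 38.0%. A member that reached 10 fragments through the library labelled luminal alone had to be higher there, so these counts describe the family and are not a test of it. The comparisons between labels share their libraries with those within a label. The basal markers moved in the same direction as the summed fragments of the members. Their summed FPKM was 1761 and 479 with the basal label and 5404 and 7199 with the luminal label. Their part in the result was not tested.

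Along chromosome 13, the members with fragments were scattered among members at 0. The Hist1 genes other than the pseudogenes lie in a first block of 23 genes over 328 kb and a second block of 31 genes over 404 kb, with 1487 kb between them. Of these, 3 genes in the first block (Hist1h4k, Hist1h1b and Hist1h4i) and 5 in the second (Hist1h2bg, Hist1h3d, Hist1h2bc, Hist1h1c and Hist1h3c) reached 1 FPKM in a library, and 4 and 5 were at 0 in every library. Hist2h2be and Hist3h2a were the other members to reach 1 FPKM.

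**Figure D4:**
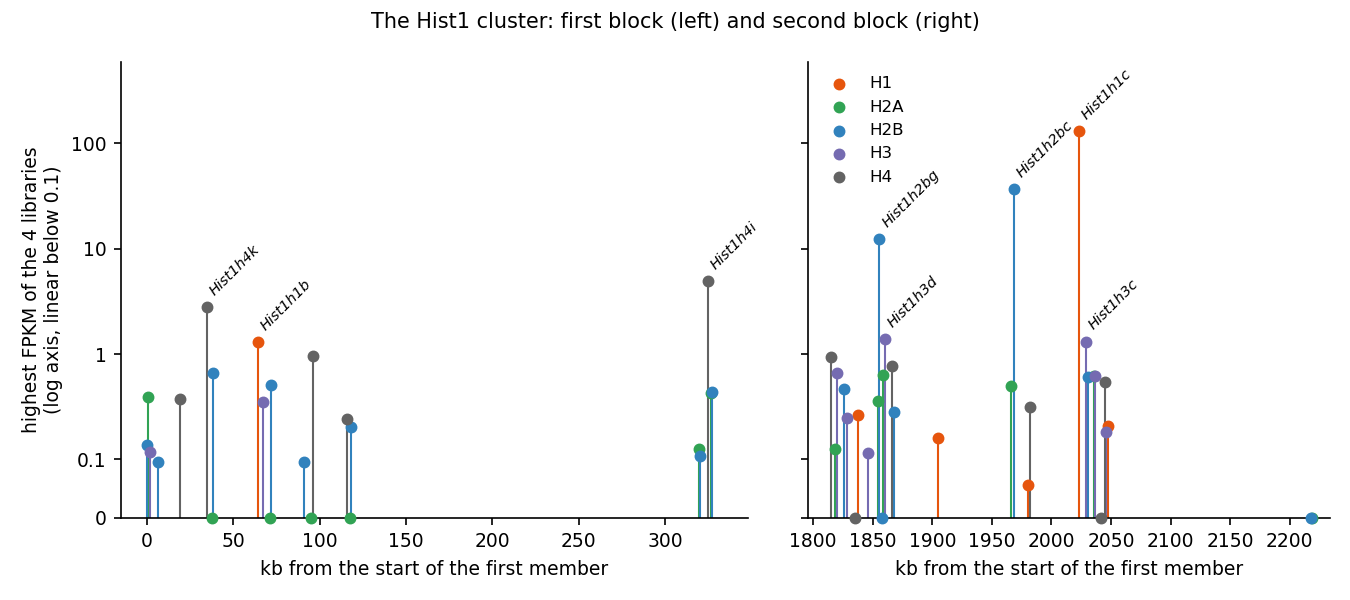
Highest FPKM over the 4 libraries for the 54 Hist1 genes that are not annotated as pseudogenes, by distance in kb from the start of the first gene, on a log axis that is linear below 0.1. The left panel shows the first block and the right panel the second, coloured by histone class, and the genes that reached 1 FPKM are named.

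Histone H2A and H2B genes often lie head to head, with a shared region between their starts. There were 12 such pairs among the members, with 175 to 305 bases between the starts, and in none did both genes reach 1 FPKM. In the pair with 250 bases between its starts, Hist1h2ac had 0.0609, 0.119, 0.4996 and 0.449 FPKM, from 3, 6, 24 and 23 fragments, in the libraries labelled basal with DMSO and baicalin and labelled luminal with DMSO and baicalin, beside 13.9, 22.7, 35.3 and 36.6 FPKM of Hist1h2bc. The partner of Hist1h2bg, Hist1h2ae with 175 bases between the starts, had 5, 1, 1 and 2 fragments, and that of Hist2h2be, Hist2h2ac, reached 0.194 FPKM in the library labelled basal with DMSO and was at 0 in the other 3. In these 3 pairs the H2B gene was above the H2A gene in every library. They are the pairs whose H2B gene reached 1 FPKM in a library, so this order follows in part from the choice. In the pairs of Hist1h2bf with Hist1h2ad and of Hist1h2bl with Hist1h2ai the H2A gene was never the lower, all under 1 FPKM. The H2A genes Hist1h2ak, Hist1h2an, Hist1h2ao and Hist1h2ap were at 0 in every library. Their partners Hist1h2bn, Hist1h2bp, Hist1h2bq and Hist1h2br were under 1 FPKM and never the lower. In the pair of Hist1h2ag with Hist1h2bj the order changed between libraries. Since 381 bases of Hist1h2bc are 98.7% identical to Hist1h2bg, one of 12 genes that share such a stretch with Hist1h2bc, part of the fragments of either H2B gene could have come from the other.

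Promoter windows of RefSeq on GRCm38.p6, from 250 bases before to 50 bases after the start, were matched for 61 of the 69 members in 62 windows. Motifs were sought on both strands. The octamer ATTTGCAT, which POU factors bind, stood in 7 of 17 H2A and 7 of 17 H2B windows and in no window of H1, H3 or H4, against 1.74% of the 32851 windows of the table. CCAAT stood in 53 of the 62, against 37.4%, and in every window of H1, H2A, H2B and H3 but in 3 of 12 of H4. TATAAA stood in 35 of the 62, against 13.6%, and AAACACA, the box of H1 promoters, in 5 of 6 H1 windows, against 7.18%. Windows of head-to-head pairs share bases, so their counts are not independent, and no motif overlaps another in the windows below. The windows are shown for Hist1h1c, Hist1h2bg and Hist1h2ac, whose window reaches to its partner Hist1h2bc, with these motifs in capitals on either strand, and the match is a description of the letters.
Hist1h1c, chr13:23738557-23738856, plus strand: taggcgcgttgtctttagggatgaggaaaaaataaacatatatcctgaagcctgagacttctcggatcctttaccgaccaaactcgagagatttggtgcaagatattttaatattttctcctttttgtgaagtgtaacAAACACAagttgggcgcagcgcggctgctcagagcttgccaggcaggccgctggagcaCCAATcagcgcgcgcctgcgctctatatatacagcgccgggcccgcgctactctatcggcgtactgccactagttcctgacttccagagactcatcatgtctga
Hist1h2bg, chr13:23571150-23571449, plus strand: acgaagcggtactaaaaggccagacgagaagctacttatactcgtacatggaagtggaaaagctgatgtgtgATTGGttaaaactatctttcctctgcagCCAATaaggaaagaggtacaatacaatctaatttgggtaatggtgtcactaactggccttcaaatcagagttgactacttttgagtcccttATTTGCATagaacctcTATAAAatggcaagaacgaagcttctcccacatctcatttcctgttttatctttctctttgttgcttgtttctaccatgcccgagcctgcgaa
Hist1h2ac, chr13:23683910-23684209, minus strand: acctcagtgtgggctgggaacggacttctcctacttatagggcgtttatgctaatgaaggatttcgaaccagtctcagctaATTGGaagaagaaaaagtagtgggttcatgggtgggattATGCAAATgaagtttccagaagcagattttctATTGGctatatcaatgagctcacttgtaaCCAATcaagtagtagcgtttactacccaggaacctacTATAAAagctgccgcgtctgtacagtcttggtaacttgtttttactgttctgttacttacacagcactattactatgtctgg
The Hist1h1c window held CCAAT and the H1 box but neither the octamer nor TATAAA, and that of Hist1h2bg held CCAAT on both strands, the octamer and TATAAA. The window of Hist1h2ac held the same 3 motifs as that of Hist1h2bg, at FPKM of at most 0.4996.

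Fragments lay mostly on members annotated with a poly(A) signal, which rests on Hist1h1c. The 17 members with a hexamer near an annotated end had 819, 1660, 2947 and 4460 fragments, of which Hist1h1c supplied 635, 1466, 2626 and 4209, and 1 of them was at 0 in every library. The 20 members whose model ends within 100 bases after the stem-loop had 24, 13, 50 and 64, and 6 of them were at 0 everywhere. The 11 with a longer model but no hexamer had 63, 33, 262 and 285, of which Hist1h2bg had 21, 5, 149 and 128, and none was at 0 everywhere. The 21 with neither feature in the annotated model had 344, 547, 840 and 926, of which Hist1h2bc, whose hexamer lies at the RefSeq end, had 320, 532, 790 and 874. Per length, the median of the members' highest FPKM was 0.358, 0.217, 0.462 and 0.147 in these 4 groups, and the median exon length was 1560, 484, 1249 and 393 bases. Near-identical copies (95% identity or more, over 200 bases or more) were found for 59 of the 69 members, and Hist1h1c and Hist2h2be were among the 10 without one. Of the members, 7 share exon bases with a gene on the same strand and 23 with one on the other strand, for which the strand and multi-mapping settings of the counting are not given in the sources used here.

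Genes for the other steps of histone supply, from lists written out by function, were mostly lower with baicalin. Of all 17787 genes, 50.9% were higher with baicalin with the basal label and 45.6% with the luminal label, which stands beside the counts below. All 45 S phase genes, which act in DNA replication, were lower in the libraries of both labels, by medians of -1.35 and -0.77 on the log2 scale. Of these, 30 and 6 were lower by more than 1, against 3.33% and 1.59% of all genes. Mcm5, a subunit of the replicative helicase, went from 21.2 to 2.62 FPKM in the libraries labelled basal and from 31.1 to 14.0 in those labelled luminal. Uhrf1, which maintains DNA methylation, went from 22.02 to 2.81 and from 25.3 to 11.2 FPKM. Rrm2, a subunit of ribonucleotide reductase, went from 26.6 to 4.48 FPKM with the basal label, and Mcm6, of the same helicase, from 40.6 to 17.9 with the luminal label. The direction of the S phase genes was opposite to that of Hist1h1c in the libraries of both labels. The lists overlap, since the S phase genes Slbp, Casp8ap2, Ccne2, Nasp, Mcm2 and Chaf1b also stand in lists below. The counts of the lists are therefore not independent. The summed FPKM of the S phase genes with baicalin was 0.369 and 0.548 of that with DMSO in the libraries labelled basal and luminal.

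Of the genes for transcription of clustered histones, 8 of 12 were lower with the basal label, by a median of -0.15, and 10 of 12 with the luminal label, by a median of -0.29. Ccne2, a cyclin E, went from 3.78 to 0.451 and from 3.75 to 1.44 FPKM, Ccne1 from 9.42 to 2.56 and from 9.35 to 6.28. E2f1, an activator of S phase genes, went from 14.3 to 7.44 with the basal label, and Cdk2, the kinase of cyclin E, from 8.78 to 5.82 with the luminal label. Of 38 genes found for the 3′ end processing and decay of histone mRNA, 30 and 32 were lower, by medians of -0.20 in both, and none passed 1. Slbp went from 9.23 to 5.20 and from 7.67 to 4.55 FPKM. The others with the largest changes were Snrpe, a protein of Sm rings, from 39.2 to 19.4, and Casp8ap2, a factor of histone mRNA processing, from 7.40 to 4.55 with the basal label, and Lsm4 from 35.5 to 23.3 and Cpsf4 from 7.25 to 4.56 with the luminal label.

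Of 27 histone chaperones, 23 were lower in the libraries of either label, by medians of -0.44 and -0.34. Asf1b, which hands H3 and H4 to assembly factors, went from 7.71 to 0.907 and from 8.57 to 3.62 FPKM. Chaf1a, a subunit of the chromatin assembly factor, went from 6.89 to 1.75 and Nasp, a chaperone of H3 and H4, from 24.3 to 8.77 with the basal label, and Anp32e, a chaperone of H2A.Z, from 57.5 to 29.6 and Dnajc9 from 23.1 to 11.7 with the luminal label. Histone genes outside the clusters make polyadenylated mRNA as a rule. Of 14 with values above 0 in all libraries, 10 were lower and 4 higher with the basal label, by a median of -0.28, and 11 lower and 3 higher with the luminal label, by a median of -0.55. Cenpa, the centromeric H3, went from 5.55 to 1.22 FPKM with the basal label, and H2afv, an H2A.Z gene, from 14.7 to 6.10 and from 26.3 to 11.03. H3f3c went from 6.01 to 1.68 with the basal label but from 3.27 to 12.3 with the luminal label, on 26 to 104 fragments, and H1fx, a linker histone gene, from 4.03 to 1.75 with the luminal label. With the luminal label against the basal label 12 of the 14 were higher with either treatment, by medians of 0.53 and 0.47. Of all genes, 52.5% were higher with DMSO and 45.2% with baicalin.

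**Figure D5:**
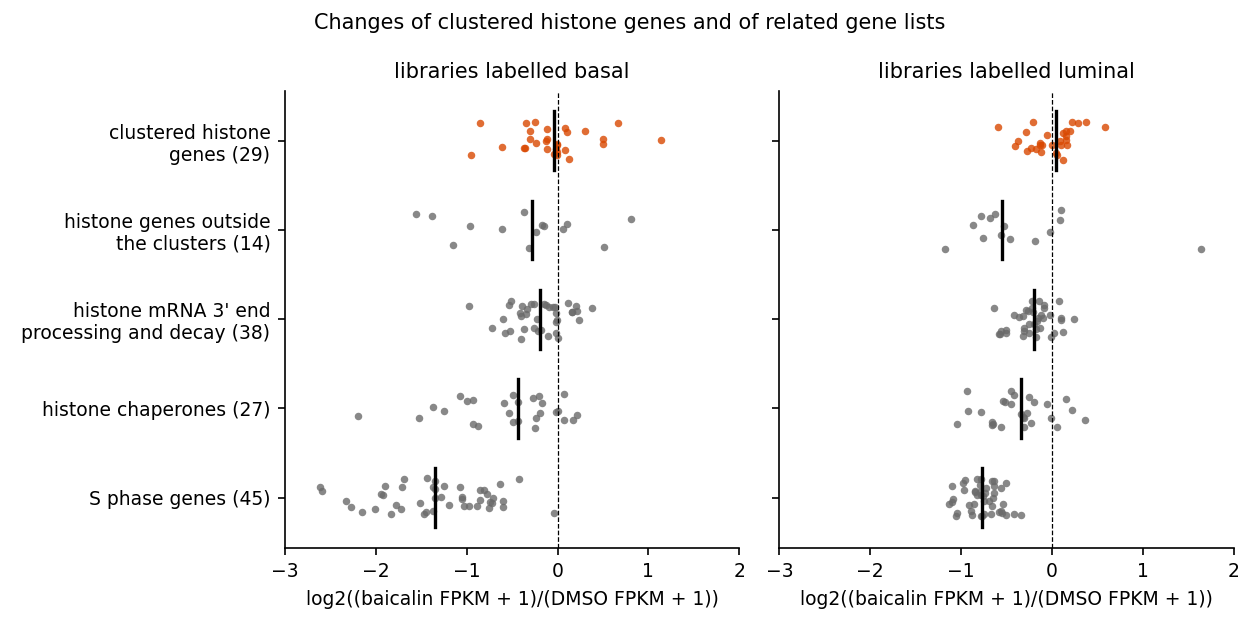
Change with baicalin on the log2((FPKM + 1)/(FPKM + 1)) scale for the 29 clustered histone genes and 4 related lists, left for the libraries labelled basal and right for those labelled luminal. Each point is a gene above 0 in all 4 libraries, spread vertically at random, and the bars are medians, which are -0.04 and 0.04 for the clustered genes and -1.35 and -0.77 for the S phase genes.

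RNAs other than histone mRNA that lack a poly(A) tail were also measured. Of 22 on the list, 7 were above 0 in all libraries. The summed FPKM of all 22 with baicalin was 1.29 times that with DMSO for the basal label and 1.16 times for the luminal label. Malat1, a nuclear RNA with a triple-helical end, made up most of these sums, at 182, 248, 199 and 222 FPKM. Rn7sk, the 7SK RNA, had 89, 44, 64 and 168 fragments, which is lower with baicalin for the basal label and higher for the luminal label. Snora73a had 2 and 9 fragments with the basal label, and Snora17 had 8 and 12 and Snora73b 43 and 37 with the luminal label. The part of RNA without a tail in the fragments of the histone genes was not tested. Markers of other cells were low, with summed FPKM of 7.40, 3.13, 11.3 and 9.88 for 8 fibroblast markers and 0.901, 1.33, 1.79 and 3.57 for 6 endothelial markers. The sum of 8 immune markers was 9.12, 52.8, 5.62 and 18.5 FPKM, most of it Cd68, a lysosomal protein of macrophages, while Ptprc, which all white blood cells carry, was at most 0.0138 FPKM.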

How the data were processed

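Poly(A) RNA was captured on oligo (dT) and sequenced from stranded libraries. The deposited values are FPKM for 54446 genes in 4 libraries, which the authors made from HISAT2 alignments to GRCm38 and featureCounts, with the gene models of Ensembl 94. The submitters' processing notes also name Bowtie 0.12.2 and the build mm8. Strand and multi-mapping settings are not given in the sources used here.

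Exon lengths, positions and transcripts came from GENCODE release M21, which gave a length for 54409 genes. FPKM multiplied by exon length fell on whole fragments, within 0.05, for 98.7 to 98.8% of low values, and this gave 19853179, 20283246, 19356124 and 20648835 fragments for the libraries labelled basal with DMSO and baicalin and luminal with DMSO and baicalin. Ratios are of fragments at equal depth, with exact 95% Clopper-Pearson intervals. Changes are log2((FPKM + 1)/(FPKM + 1)), which understates the change of low genes, on 17787 genes above 0 in all libraries, with a threshold of 1. The t-test of the study's methods could not be run with 1 library per condition.

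Members with at least 5 FPKM in a library were given with every value, as were, per cell label, the 3 largest rises and falls among members with at least 10 fragments in a library of the pair, the 3 largest changes of each other list, and Krt5, Krt14, Krt8 and Krt18. Others were named after their values were seen. The members and lists were chosen with earlier results of these data known. The stem-loop was searched in annotated transcripts, not in the bases beyond them as planned. Transcripts were aligned with blastn 2.17.0 to find copies. The row Hist3h2bb-ps, with 1 fragment in each library, was left out. Alternatives were other pseudocounts, filters, thresholds and scalings, and sums without members. The steps were tested on simulated data with known fold changes. Scripts ran under Python 3.11.15 with pandas 2.3.3, numpy 2.4.6 and scipy 1.17.1, and figures were drawn with matplotlib 3.10.9.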

Additional observations from a re-analysis of the deposited data

How the results depend on the processing

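No paired analysis was possible because each condition has 1 library, and no library could be left out of a group for the same reason. The counts of members past 1 depended on the pseudocount, since most members are low. The percentages of all 17787 genes past the same threshold stand beside the counts, which are of 29 members. With a pseudocount of 0.1 FPKM, 2 members were higher (6.31% of all genes) and 9 lower (7.32%) with baicalin for the basal label, 1 higher (5.91%) and 2 lower (5.13%) for the luminal label, 15 higher (11.4%) and 1 lower (8.25%) with the luminal label and DMSO, and 16 higher (11.4%) with the luminal label and baicalin. With no pseudocount these counts were 2 (9.52%) and 14 (11.5%), 2 (8.76%) and 6 (8.64%), 19 (16.1%) and 1 (10.8%), and 16 (14.8%). After scaling to TPM, 3 were lower with baicalin for the basal label (5.63%), and 8 (7.34%) and 11 (8.09%) were higher with the luminal label with DMSO and baicalin. With a threshold of 2, 0 were higher with baicalin for the basal label (0.231%), and 2 (1.04%) and 1 (1.36%) were higher with the luminal label with DMSO and baicalin. Of the 6 tested members without a near-identical copy, 1 was higher with the luminal label with DMSO (4.71%) and 1 with baicalin (5.24%).

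The summed ratios of baicalin to DMSO rested on Hist1h1c and Hist1h2bc, and the alternative that left out both was chosen after seeing the data. Without Hist1h1c, the ratio was 1.25 with baicalin for the basal label, 0.971 for the luminal label, and 2.46 and 1.90 for the luminal against the basal label with DMSO and baicalin. The value of 0.971 is below 1, but its interval (0.903 to 1.04) holds 1. Without both genes the ratio was 0.846 and 0.895 with baicalin, and 2.37 for the labels with DMSO. Both ratios with baicalin were below 1, but the interval for the basal label (0.713 to 1.004) held 1. Over members without a copy the ratio was 2.13, 1.47, 4.02 and 2.76, and by summed FPKM 1.57 for the basal label. The linker share was 51.8, 66.1, 65.0 and 74.6% by fragments and 93.4, 97.4, 96.9 and 98.6% over members without a copy, and the share of Hist1 was 91.9, 93.5, 94.7 and 97.3% by fragments and 97.7, 97.6 and 99.2% over members without a copy in all libraries but that labelled basal with DMSO.

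The median change for the basal label reversed to 0.0797 over members with at least 10 fragments and to 0.0299 over members without a copy. That of Hist2h2be between labels with baicalin reversed to 0.0140 after centring on the median of all genes. The causes of these differences were not tested. Depth limits most members, which had fewer than 10 fragments in every library.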
